A study of Mus musculus with 12 samples.

Results

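Ribosome-bound RNA was compared with total RNA in hearts of adult mice that lack Rpl3l (Rpl3l-/-), a relative of Rpl3 that striated muscle builds into its ribosomes. The libraries were chosen by their labels alone: the 3 pulldown libraries (IP) and the 3 total RNA libraries (Input) of the Rpl3l-/- genotype, 6 of the 12 libraries of the series. Both groups are adult Rpl3l-/- hearts in 3 biological replicates. For IP, hearts were put in cycloheximide when taken out, lysed in a detergent and heparin buffer that also held cycloheximide, and their ribosomes were caught on magnetic beads through an antibody to the HA tag before RNA was cleaned on RNeasy columns. For Input, RNA of heart homogenates was taken up in TRIzol. Both RNAs were selected for poly(A) tails, turned into direct cDNA libraries with barcodes and sequenced by nanopore on a MinION. The sources used here do not give strain, sex or exact age, which cells carry the HA tag or what drives it, or whether an IP and an Input library share a heart. Ribosome capture, cycloheximide, buffer and RNA purification change together between the fractions and cannot be told apart.

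In translating ribosome affinity purification (TRAP), an epitope on a ribosomal protein lets ribosomes be pulled down together with the mRNAs they sit on, so that a transcript's share in the pulldown, set against its share in total RNA, reflects how much of it is held by tagged ribosomes. Where the tag is made in only some of a tissue's cells, transcripts of the other cells are also left behind. In heart muscle most protein synthesis serves the sarcomere and the mitochondria, and the mRNAs for the translation machinery itself carry a terminal oligopyrimidine (TOP) tract at their start, which the growth regulator mTORC1 and the binding protein LARP1 use to hold them off ribosomes or let them on.

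The IP libraries held 443525, 710868 and 569900 counts and the Input libraries 291040, 289594 and 169359, so that 3 counts stood for 4.22 to 17.7 counts per 1000000 (CPM). Of the 55401 genes in the files, 40649 were at 0 in all 6 libraries, and 5116 passed the single filter on low counts and were tested. Log2 counts correlated at 0.866 to 0.947 between libraries of the same fraction and at 0.793 to 0.841 between fractions (Pearson's r across the 5116 genes, given as a description). Globin genes took 1.70% to 6.97% of the counts and the mitochondrial chromosome none. Levels below are CPM after TMM scaling, which compares shares of a library and not amounts per heart.

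Rpl3l (ENSMUSG00000002500.15, chr17:24727820-24736143, GRCm38) had 1, 2 and 5 counts in the IP libraries and 18, 7 and 9 in the Input libraries. These stand for 2.25, 2.81 and 8.77 CPM of the unscaled library total in IP (exact 95% intervals from 0.0571 to 20.5 over the 3 libraries) and for 61.8, 24.2 and 53.1 in Input (9.72 to 101). Every IP library lay below every Input library, and the gene was under the filter and not tested. Wild-type libraries, looked at only for this check of the labels, had 83 to 182 counts. Rpl3 (ENSMUSG00000060036.14, chr15:80077791-80091868), which codes for the protein that Rpl3l replaces in muscle ribosomes, stood at 263, 232 and 238 CPM in IP and 531, 475 and 469 CPM in Input. It was 2.02-fold lower in IP with no overlap between the fractions (log2 difference -1.01, SE 0.19, adjusted p 0.000633). The pair is similar in sequence, and the sources used here do not say how a read that matched both was counted.

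The fractions differed widely. Of the 5116 genes, 841 differed at an adjusted p under 0.05 by edgeR's quasi-likelihood test, which is 16.4%. Among them 347 were higher in IP (6.78%) and 494 were lower (9.66%), and in 806 the libraries of one fraction did not overlap those of the other. In all, 1500 genes had an unadjusted p under 0.05. A difference of at least 2-fold was called for 221 higher and 319 lower genes, and of at least 4-fold for 30 and 54. The median log2 difference of all tested genes was 0.03. Scaling by library totals moved that median to 0.16 and the split to 457 higher and 366 lower, so the balance of directions follows the scaling, and changes are best read against the median. Without Input replicate 2 the number of called genes was 540, and the number of higher genes was 195 without Input replicate 2 and 198 without Input replicate 1.

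**Figure D1:**
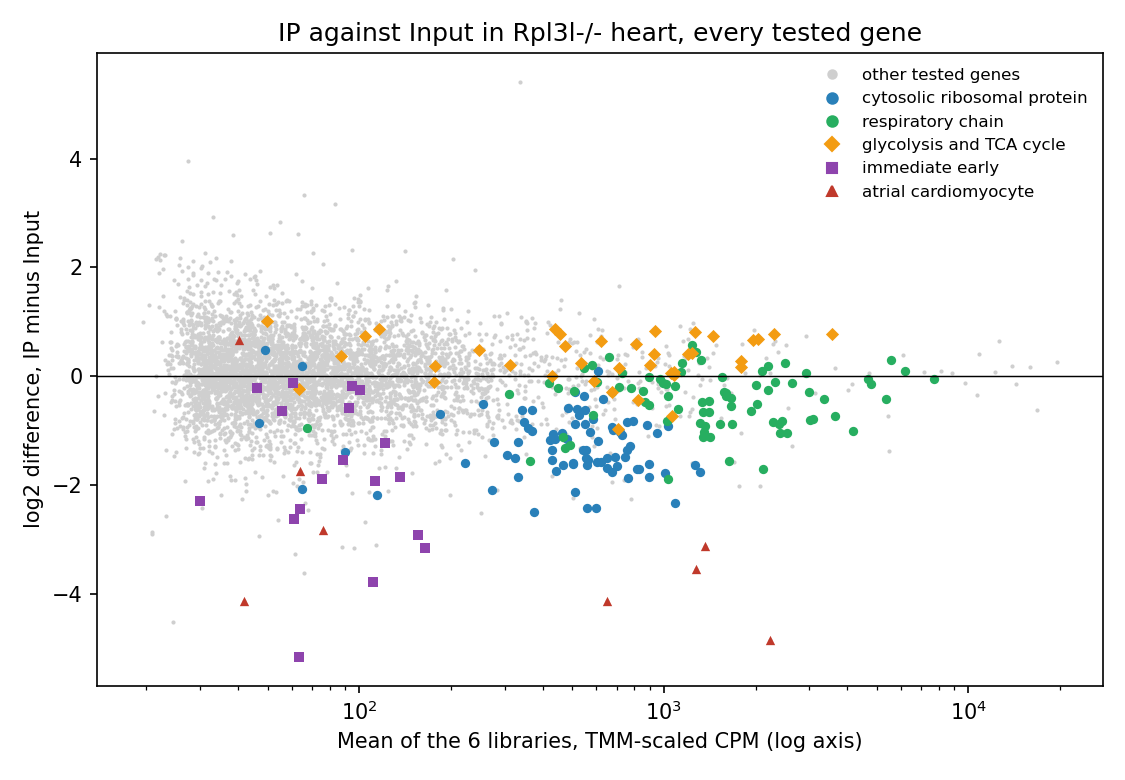
Log2 difference IP minus Input (vertical axis) against the mean level of the 6 libraries in TMM-scaled CPM (horizontal log axis) for all 5116 tested genes, 5 gene lists marked. Ribosomal protein genes form a band below 0 at high level, and atrial and immediate early genes reach the lowest values, down to -5.16 for Fos.

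Ribosomal protein genes made up the broadest group that was lower in IP. Of 87 cytosolic ribosomal protein genes, 3 were at 0 in all libraries and 3 (Rpl3l, Rpl10l and Rpl39l) were under the filter. Of the 81 tested, 72 were lower in IP (88.9%, against 9.66% of all tested genes) and none was higher. The median log2 difference was -1.35 (0.03 over all tested genes). Summed over the tested and untested members, they held 25397 to 26639 CPM in the IP libraries and 54096 to 71550 CPM in the Input libraries. In 76 of the 81 genes the 3 IP libraries lay below the 3 Input libraries, against 16.5% of all tested genes. Without 1 library in turn 64 to 73 members were lower. Rps12, a small-subunit protein, had 121, 127 and 93.2 CPM in IP and 760.5, 678 and 475 CPM in Input, 5.64-fold lower (log2 difference -2.49, SE 0.22, adjusted p 4.67e-08). Rpl39, which lines the large subunit's peptide tunnel, had 177, 167 and 222 against 1284, 889 and 853 CPM (-2.42, SE 0.21). Rps15a had 165, 192 and 172 against 1179, 914 and 733 CPM (-2.42, SE 0.21) and Rps14 401, 333 and 344 against 2185, 1695 and 1556 CPM (-2.34, SE 0.20). In each of these 4 genes every IP library was more than 3-fold below every Input library. The members not called ran from -0.87 (Rpl7l1) to 0.49 (Rpl9), with Rpl10 at 0.19 and Rpl4 at 0.09 (chosen after their values were seen). Many of these genes have processed pseudogenes of nearly the same sequence, and the rule by which such reads were counted is not known here.

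Of 46 tested translation factors 8 were lower (17.4%) and 5 higher (10.9%) in IP, against 9.66% and 6.78% of all tested genes, with a median of -0.07. Eef1a1, the elongation factor that brings aminoacyl-tRNA to the ribosome, had 199, 167 and 190.0 CPM in IP and 616, 666 and 360.4 CPM in Input (-1.58, SE 0.22, adjusted p 1.86e-05). Its muscle and nerve paralog Eef1a2 went the other way, with 1415, 1149 and 1092 CPM in IP and 551, 748 and 715 CPM in Input (0.86, SE 0.20, adjusted p 0.00401). For both genes the fractions did not overlap. Tpt1, a small protein whose mRNA has a TOP start, was lower (-2.02, SE 0.24), as was Eif5a (-0.81; adjusted p 0.0719 with the trend over transcript length taken out). The repressors of the cap-binding protein eIF4E parted as well, with Eif4ebp1 lower (66.4, 49.4 and 66.3 against 169, 157 and 156 CPM, -1.42) and Eif4ebp2 higher (73.8, 97.4 and 75.3 against 32.2, 24.8 and 18.0 CPM, 1.68, adjusted p 0.00389 by edgeR and 0.0577 by limma-voom). Eif4g1, the scaffold of the cap-binding complex, was 2.17-fold higher (1.12, SE 0.22). Without 1 library in turn 5 to 9 members were lower and 3 to 5 higher, with 5 lower and 3 higher without IP replicate 1, IP replicate 3 or Input replicate 1, and 3 higher without Input replicate 3.

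Start-site sequences are shown for genes at the low end of the ribosomal protein list and for the Eef1a pair, since the TOP tract is read from the first bases of the mRNA. Each line gives 10 bases before and 20 bases from the RefSeq start in GRCm38.p6, on the gene's own strand, and capitals mark a run of at least 5 bases that opens with C, goes on with C or T and begins within 3 bases of the start.
Rps15a, chr7:118116128-118116157, minus strand: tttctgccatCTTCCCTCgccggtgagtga
Rps18, chr17:33955646-33955675, minus strand: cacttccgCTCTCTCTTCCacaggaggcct
Rpl35, chr2:39005112-39005141, minus strand: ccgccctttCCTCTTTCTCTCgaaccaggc
Rps12, chr10:23787190-23787219, minus strand: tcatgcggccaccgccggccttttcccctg
Rpl39, chrX:37085203-37085232, minus strand: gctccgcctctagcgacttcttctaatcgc
Eef1a1, chr9:78481705-78481734, minus strand: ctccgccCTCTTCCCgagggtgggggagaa
Eef1a2, chr2:181156996-181157025, minus strand: cctggtctgcgttctcgctcactggttctc
Rps15a, Rps18, Rpl35 and Eef1a1 hold such a run at the listed start. Rps12, Rpl39 and Eef1a2 hold none that begins so close to it. Of the 66 ribosomal protein genes in the RefSeq promoter table, 27 (40.9%) held the run, against 13.5% of all 27025 genes in that table. Among tested ribosomal protein genes the median log2 difference was -1.44 for the 26 with the run (24 lower) and -1.18 for the 35 without (29 lower), a description with no test. Among the other tested protein-coding genes in that table, the median was 0.07 for the 602 with the run (47 lower). It was 0.02 for the 3342 without (275 lower). A start taken from a database may not be the start used in heart, and a missing run says only that none begins within 3 bases of the listed start, since C and T runs further along are not marked.

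Atrial genes were the most strongly reduced group. Of 9 genes that mark atrial rather than ventricular muscle, 8 were tested, with a median log2 difference of -3.34. Lower in IP were 7 of the 8 (87.5%, against 9.66% of all tested genes). The summed level of the 9 was 428 to 1152 CPM in IP and 8861 to 13033 CPM in Input. Nppa, which codes for atrial natriuretic peptide, stood at 157, 199 and 89.6 CPM in IP and 4338, 5518 and 3094 CPM in Input, 28.8-fold lower (-4.85, SE 0.29, adjusted p 6.96e-11). Sln, sarcolipin, which restrains the calcium pump of atrial muscle, stood at 91.0, 80.5 and 41.2 against 1259, 1368 and 1069 CPM (-4.13, SE 0.25, adjusted p 6.96e-11). For both genes the highest IP library lay more than 10-fold below the lowest Input library.

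The atrial myosin light chains followed the same direction. Myl7 had 440.4, 285 and 122 CPM in IP and 1979.7, 3009 and 2331 CPM in Input (-3.13, SE 0.30, adjusted p 2.01e-07), and Myl4 had 367, 175 and 71.7 against 2294, 2699 and 2030.5 CPM (-3.55, SE 0.34, adjusted p 1.71e-07). IP replicate 1 was the highest and IP replicate 3 the lowest of the pulldowns for both, and the fractions did not overlap. Bmp10, a secreted factor of the right atrium, had 7 counts over the 3 IP libraries, all in replicate 3, against 52 counts in Input, a ratio of their pooled shares of 0.0529 (exact 95% interval 0.0203 to 0.117, counting error only). Mybphl, an atrial relative of myosin-binding protein C, fell from 109.6 ± 22.2 CPM in Input to 13.1 ± 16.4 CPM in IP (mean ± SD, n = 3 each; -3.27, SE 0.51). Mybphl is no member of the atrial list. The other lower members were Stard10 (-2.84) and Dkk3 (-1.75), and the 1 tested member not called was Tbx5, a transcription factor of heart development (0.67). Stard10, Dkk3 and Tbx5 were named after their values were seen. Nppb, the natriuretic peptide of stressed ventricle and of atrium, had 244, 186 and 104 CPM in IP and 901, 781 and 811 CPM in Input (-2.24, SE 0.24, adjusted p 6.67e-07). Myl2, the ventricular light chain, was not called, at 13902, 12548 and 14519.5 against 15013, 15331 and 14759.9 CPM (-0.14, SE 0.22, adjusted p 0.741). Fewer cells of a type, less RNA per cell and less ribosome capture per RNA cannot be told apart in such bulk libraries, and the sources used here do not say how much atrium each homogenate held. The calls of Nppa, Sln, Myl4, Myl7 and Nppb held under all 17 alternative settings.

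**Figure D2:**
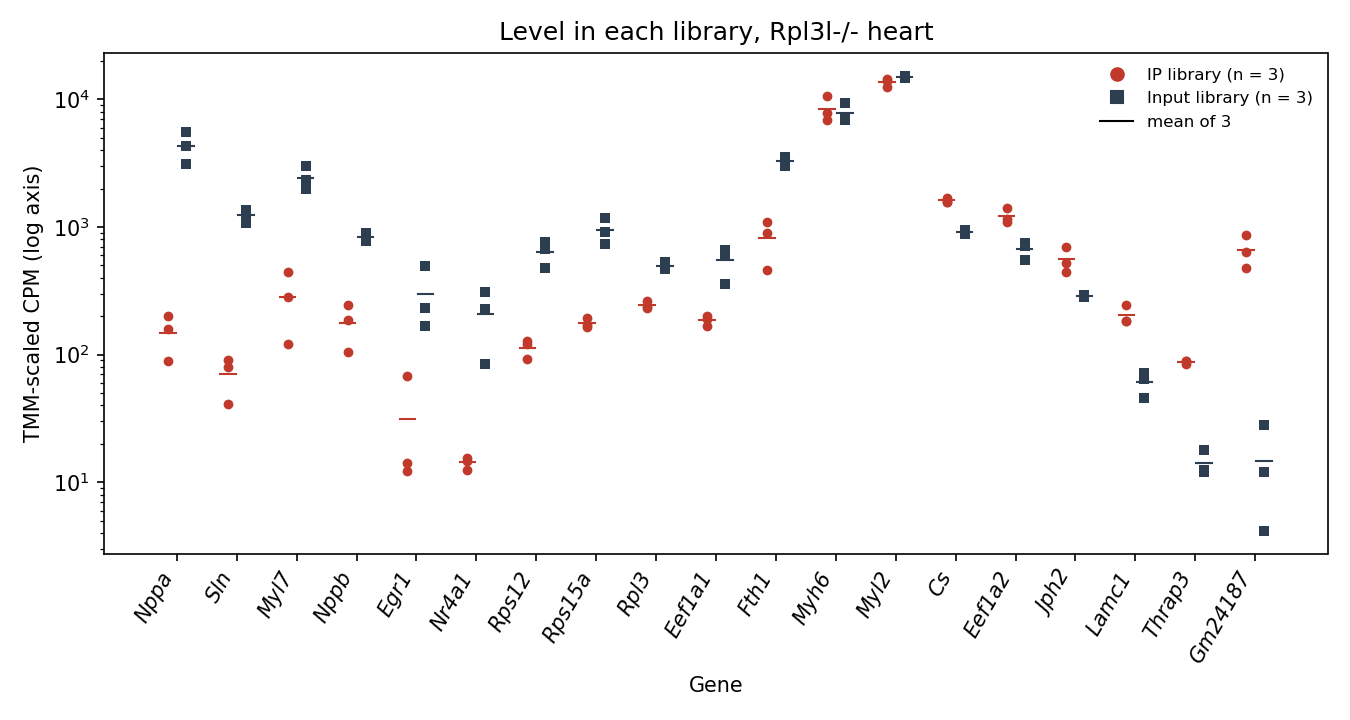
Level of 19 genes in each of the 3 IP and 3 Input libraries, in TMM-scaled CPM on a log axis, with a bar at each mean of 3. Nppa, Sln and Myl7 lie apart by about an order of magnitude or more, Myh6 and Myl2 lie together, and Gm24187 has the largest gap in the other direction.

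Immediate early genes, which cells switch on within minutes of a stimulus, were lower in IP. Of 29 members, 18 were tested, 12 were lower in IP (66.7%, against 9.66% of all tested genes) and none was higher. All 18 differences were below 0 (median -1.87). Their summed level was 778 to 853 CPM in IP and 1742 to 3376 CPM in Input. Fos, which pairs with Jun proteins to form AP-1, had 0, 4.24 and 3.58 CPM in IP (5 counts in all) and 60.4, 66.1 and 246 CPM in Input, a ratio of pooled shares of 0.0273 (exact 95% interval 0.0086 to 0.0666). Nr4a1, an orphan nuclear receptor, had 14.8, 15.5 and 12.5 CPM in IP and 84.5, 227 and 312 CPM in Input (-3.79, SE 0.41, adjusted p 8.81e-07). Egr1, a zinc-finger transcription factor, had 12.3, 14.1 and 68.1 against 169, 231 and 493 CPM (-3.17, SE 0.44, adjusted p 1.70e-05). The Input libraries of these genes spread over several fold, with replicate 3, the shallowest, the highest.

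The matricellular genes Ccn1 and Ccn2, targets of YAP and serum response factor, were lower too. Ccn1 had 39.4, 28.2 and 39.4 CPM in IP and 181, 223 and 421 CPM in Input (-2.92, SE 0.31, adjusted p 6.67e-07), and Ccn2 44.3, 70.6 and 59.1 against 185, 269 and 186 CPM (-1.85, SE 0.26, adjusted p 2.11e-05). Sgk1, a kinase induced by serum and glucocorticoid, had 29.5, 16.9 and 12.5 against 92.5, 219 and 204 CPM (-3.15, SE 0.38). The fractions did not overlap for any of these 3 genes. The other called members were Ier2 (-2.44), Dusp1 (-1.93), Zfp36 (-2.62), Junb (-1.89), Apold1 (-2.30), Btg2 (-1.54) and Klf6 (-1.24), and Jun (-0.58), Ier3, Ier5, Jund, Klf2 and Klf4 were not called. Without 1 library in turn 11 or 12 members were lower. The part of the spread among Input libraries in these differences was not tested.

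Of 17 tested cardiomyocyte markers, those of working heart muscle, 3 were lower (17.6%, against 9.66% of all tested genes). None was higher (against 6.78%), and the median was -0.14. The summed level of the markers overlapped between the fractions, at 79788 to 94244 CPM in IP and 84355 to 105538 CPM in Input. Actc1 was listed at 0 in all 6 libraries. The motor gene Myh6 had 6885, 7818 and 10564 CPM in IP and 6945, 9396 and 7227 CPM in Input (0.10, SE 0.23, adjusted p 0.818). Ttn, the giant sarcomere spring, had a log2 difference of 0.25 (SE 0.22), Tpm1 of 0.17 (SE 0.24), the calcium pump Atp2a2 of 0.41 (SE 0.23) and its inhibitor Pln of -0.14 (SE 0.20), none of them called. Tnnt2, the troponin that binds tropomyosin, had 17852, 13383 and 15050.0 against 9001, 12182 and 8410.2 CPM, which did not overlap but missed the threshold (0.64, adjusted p 0.0660). It passed in 7 of 17 other settings, among them DESeq2 (adjusted p 0.0166), limma-voom (0.0102) and scaling by library totals (0.0110), and limma-voom called 2 of the 17 markers higher. Myh7, the slow myosin, had 98.4, 237 and 289 against 298, 384 and 18.0 CPM, with the low value of Input replicate 3 resting on 3 counts. Mb, the oxygen store myoglobin, was the exception with 1914, 3548 and 3729.8 CPM in IP and 8985, 10313 and 4433 CPM in Input (-1.37, SE 0.29, adjusted p 0.00202). The calls of the other 2, Ckm (-0.58) and Myoz2 (-0.59), were lost in 9 and 10 of 17 settings, and 1 marker was lower without IP replicate 2, IP replicate 3, Input replicate 1 or Input replicate 2.

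Among 40 tested sarcomere genes (median -0.06) 8 were lower (20%) and 2 higher (5%), the atrial Myl4 and Myl7 included. Over all tested genes the shares were 9.66% and 6.78%. Lmod2, leiomodin 2, which lengthens thin filaments, had 367, 328 and 335 CPM in IP and 877, 669.6 and 961 CPM in Input (-1.28, SE 0.19, adjusted p 5.17e-05). Myh7b, an ancient myosin that hosts a heart microRNA, had 145, 93.2 and 133 against 237, 318 and 198 CPM (-1.06, SE 0.24, adjusted p 0.00379). Of 30 tested calcium-handling and channel genes (median 0.02) 4 were lower (13.3%) and 2 higher (6.67%), near the shares of all tested genes. Jph2, which ties the sarcoplasmic reticulum to the T-tubules, was higher at 704, 525 and 444 against 294, 281 and 294 CPM (0.94, SE 0.21, adjusted p 0.00309). All 3 genes had fractions that did not overlap. Without IP replicate 3 or Input replicate 1, 5 sarcomere genes were lower, and 0 or 1 was higher without IP replicate 1 or any Input replicate. The calcium genes had 1 higher without IP replicate 2, Input replicate 1 or Input replicate 2 and 4 without Input replicate 3, and 2 of them were lower without IP replicate 2, IP replicate 3, Input replicate 1 or Input replicate 2.

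Transcription factors of cardiac lineage and energy metabolism had 5 of 23 tested members higher in IP (21.7%, against 6.78% of all tested genes). None was lower, and the list median was 0.50. Myocd, the muscle cofactor myocardin, had 41.8, 103 and 147 CPM in IP and 28.2, 8.27 and 0 CPM in Input (2.84, SE 0.58, adjusted p 0.00149), the Input values resting on 9 counts and the call lost by limma-voom (adjusted p 0.0725). Perm1, a regulator of mitochondrial genes in muscle, had 443, 347 and 364 against 181, 215 and 198 CPM (0.95, SE 0.21, adjusted p 0.00275). The muscle ubiquitin ligase gene Fbxo40 had 239, 251 and 229 against 84.5, 103 and 102 CPM (1.32, SE 0.23, adjusted p 0.000375). In all 3 genes every IP library was above every Input library. Only 2 of the 23 factors were higher without Input replicate 2, and Srf (1.22) was then at adjusted p 0.0753.

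Of 81 tested genes of the respiratory chain and ATP synthase, 29 were lower in IP (35.8%) and 1 higher (1.23%), with a median of -0.36. Over all tested genes the shares were 9.66% and 6.78%. Ndufb2, a subunit of complex I, had 288, 449 and 575 CPM in IP and 1795, 1732 and 1339.6 CPM in Input (-1.89, SE 0.23, adjusted p 3.14e-06), and Atp5e, of ATP synthase, 1038, 854 and 1072 against 3911, 2955 and 2859 CPM (-1.72, SE 0.21, adjusted p 3.22e-06). The complex IV genes Cox7a2l (-1.56) and Cox7a2 (-1.55) were lower as well. With the trend of the difference with transcript length taken out, 6 of the 81 were lower and 5 higher and the median was 0.10. The count of lower genes was 18 without Input replicate 1 and 19 without IP replicate 2, and 0 were higher without any 1 library other than Input replicate 3. Of 71 tested mitochondrial ribosomal protein genes 8 were lower (median -0.15), a share of 11.3% that is near the 9.66% of all tested genes; among them were Mrps24 (-1.43, SE 0.22) and Mrps21 (-1.12, SE 0.22; adjusted p 0.172 with the length trend taken out), with 4 lower without Input replicate 1 or Input replicate 2 and 5 without IP replicate 3.

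Of 38 tested genes of glycolysis and the citric acid cycle 12 were higher in IP (31.6%) and 1 was lower (2.63%), with a median of 0.39. Over all tested genes 6.78% were higher and 9.66% lower. Cs, citrate synthase, had 1585, 1566 and 1696 CPM in IP and 913, 942 and 883 CPM in Input (0.82, SE 0.19, adjusted p 0.00349). Aldoa, aldolase A, had 3081, 2823 and 2832 against 1581, 1695 and 1808 CPM (0.78, SE 0.19, adjusted p 0.00721), and Ldha, lactate dehydrogenase A, 1319, 1067 and 1206 against 676, 715 and 625 CPM (0.83, SE 0.19). Got2, of the malate-aspartate shuttle, was higher too (0.87, SE 0.21). The fractions did not overlap for these 4 genes, and their differences were all under 2-fold. The lower gene was Suclg1, of succinyl-CoA synthetase (-0.98; adjusted p 0.00579, and 0.0535 without Input replicate 1). Without Input replicate 1 or Input replicate 2, 6 genes of the list were higher. Of 33 tested genes of fatty acid uptake and oxidation 6 were lower (18.2%) and 1 higher (3.03%), with a median of 0.05. Among the lower ones were Acads, a short-chain dehydrogenase (-0.86, SE 0.20, adjusted p 0.00410), and Cpt1b, the muscle carnitine palmitoyltransferase. Cpt1b had 8 counts in IP and 25 in Input (-2.91, adjusted p 0.00410, and 0.0664 without Input replicate 2). Without IP replicate 2 or Input replicate 2, 2 of the 33 were lower, and 0 were higher without IP replicate 3, Input replicate 1 or Input replicate 3 and 2 without IP replicate 1.

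The antioxidant and iron list had 10 of 38 tested members lower (26.3%, against 9.66% of all tested genes) and 2 higher (median -0.13), and 6 lower and 4 higher with the length trend taken out. Fth1, ferritin heavy chain, whose mRNA carries an iron-responsive element, had 463, 892 and 1086 CPM in IP and 3509, 3406 and 3028 CPM in Input (-2.02, SE 0.25, adjusted p 3.79e-06). Ftl1, the light chain, had 78.7, 59.3 and 53.8 against 229, 244 and 126 CPM (-1.69, SE 0.27, adjusted p 0.000114). The selenoprotein genes Gpx4, which reduces lipid peroxides (-1.58, SE 0.21, adjusted p 8.02e-06), and Selenow (-1.46, SE 0.25) were lower. Sod2, the mitochondrial superoxide dismutase, was higher, with 1695, 1553 and 1724 against 845, 963 and 721 CPM (0.97, SE 0.19, adjusted p 0.00116). No library of one fraction crossed into the other for these 5 genes.

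Genes of the other cells of the heart were present in both fractions. Of 21 tested endothelial markers (median -0.36) 7 were lower (33.3%) and 2 higher (9.52%), against 9.66% and 6.78% of all tested genes. Only 1 was higher without IP replicate 1, Input replicate 1 or Input replicate 2. The summed level of the endothelial markers was 4215 to 4823 CPM in IP and 6152 to 7846 CPM in Input. Egfl7, a secreted endothelial factor, had 93.5, 50.8 and 60.9 CPM in IP and 233, 219 and 234 CPM in Input (-1.78, SE 0.25, adjusted p 2.63e-05), and Fabp4, a fatty acid carrier of capillaries and fat, 1127, 1094 and 1264 against 2096, 2356 and 2787 CPM (-1.05, SE 0.20; adjusted p 0.0714 with the length trend taken out). Rbp7 (-1.84) and the junction protein gene Esam (-1.36) were lower too. Flt1, a receptor for VEGF, was higher instead, with 234, 229 and 201 against 92.5, 107 and 48.1 CPM (1.37, SE 0.26, adjusted p 0.000798). Its ligand Vegfa, which cardiomyocytes also make, was lower (169.8, 119 and 129 against 334, 244 and 384 CPM, -1.21, SE 0.23).

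Fibroblast markers (median 0.34) had 2 members higher (11.8%) and 1 lower (5.88%) of 17 tested, against 6.78% and 9.66% of all tested genes. Their summed level was 5744 to 6902 CPM in IP and 5006 to 5762 in Input. Without any 1 library 0 or 1 was higher and 0 or 1 lower. DESeq2 called 0 of the 17. The lower member, Col3a1 (-0.68), lost its call in 11 of 17 settings. Of 14 tested macrophage and leukocyte markers (median 0.19) 1 was higher (7.14%, near the 6.78% of all tested genes) and none lower. The higher one was Cd74, the invariant chain of antigen presentation (258, 215 and 244 against 109, 149 and 96.1 CPM, 0.99, SE 0.23, adjusted p 0.00499). The number higher was 2 without IP replicate 2 or any 1 Input replicate. By edgeR, DESeq2 and limma-voom alike, 0 of 7 tested smooth muscle and pericyte markers and 0 of 10 erythroid markers were called. At an unadjusted p under 0.05 by edgeR there were 0 and 1, the latter Bpgm, of red cell glycolysis (1.00, adjusted p 0.0915). Bpgm passed without IP replicate 3 (adjusted p 0.0359) and with no count filter (0.0311). Adult globin, as Hbb-bs, stood at 38664, 15939 and 9162 CPM in IP and 21052, 23863 and 8380.2 CPM in Input, and its part in other results was not tested beyond leaving globin genes out, which gave 853 called genes in place of 841. Extracellular matrix and secreted proteins (median 0.26) had 7 of 40 tested members higher (17.5%) and 4 lower (10%), against 6.78% and 9.66% of all tested genes. The members with the smallest p among those higher were the basement membrane genes Lamc1 (244, 184 and 183 against 64.4, 45.5 and 72.1 CPM, 1.75, SE 0.27, adjusted p 7.75e-05) and Col4a2 (2.54-fold, adjusted p 0.00118). Between 2 and 6 were higher without 1 library (2 without Input replicate 2, 3 without IP replicate 1 or Input replicate 3, 4 without IP replicate 3 or Input replicate 1).

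Adipocyte genes had the lowest list median after atrial genes in the main fit. Of 16 members 8 were tested (median -2.07), and 6 were lower (75%, against 9.66% of all tested genes). The number lower was 4 without IP replicate 3, Input replicate 1 or Input replicate 2. A stricter filter of at least 30 counts in at least 3 libraries left 2 members, 1 of them lower (median -0.23). Car3, carbonic anhydrase 3, had 2.46, 18.4 and 5.38 CPM in IP and 173, 112 and 84.1 CPM in Input (-3.62, SE 0.46, adjusted p 5.23e-06), and Cfd, the fat-secreted complement factor D, 19.7, 28.2 and 21.5 against 286, 186 and 138 CPM (-3.11, SE 0.32, adjusted p 4.56e-07). The fat-synthesis genes Scd1 (17.2, 35.3 and 28.7 against 205, 194 and 144 CPM, -2.69) and Fasn (7.38, 11.3 and 12.5 against 117, 66.1 and 66.1 CPM, -2.94) were lower too. The fractions were apart for all 4 genes. The summed level of the list was alike in both fractions (5935 to 8488 CPM in IP, 5870 to 7150 CPM in Input), of which Lpl, made by heart muscle too, held most (5598, 7976 and 7246 against 5521, 4580.0 and 5809 CPM, 0.39, not called). The defining fat-cell genes Adipoq (0, 2 and 2 counts in IP, 6, 4 and 1 in Input) and Plin1 (0 to 3 counts a library) were near 0 in every library and not tested.

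**Figure D3:**
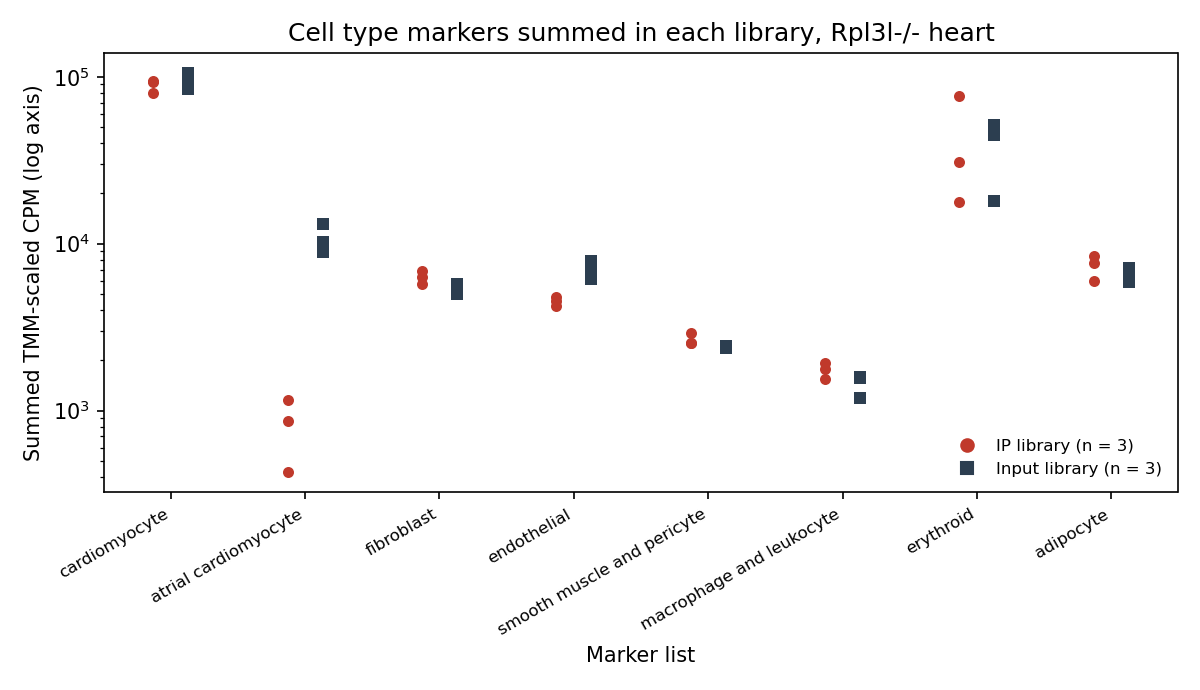
Summed level of the markers of 8 cell types in each library, in TMM-scaled CPM on a log axis. Atrial markers lie apart by more than 7-fold between the nearest libraries of the 2 fractions. Endothelial markers and smooth muscle and pericyte markers lie apart by less. The cardiomyocyte, fibroblast, macrophage and leukocyte, erythroid and adipocyte sums overlap.

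Among 50 tested splicing regulators (median -0.28) 10 were lower (20%) and 4 higher (8%) in IP, against 9.66% and 6.78% of all tested genes. Clk1, a kinase of splicing factors that is known for transcripts kept in the nucleus, had 22.1, 8.47 and 23.3 CPM in IP and 117, 128 and 228 CPM in Input (-3.14, SE 0.40, adjusted p 4.95e-06). Rsrp1 had 118, 126 and 82.4 against 539, 496 and 342 CPM (-2.09, SE 0.23, adjusted p 1.12e-06), and Rbm39 (-1.31) and the helicase gene Ddx17 (-1.25) were lower. Thrap3, a splicing and transcription cofactor, stood far on the other side, with 88.6, 89.0 and 84.2 CPM in IP and 12.1, 12.4 and 18.0 CPM in Input (2.64, SE 0.42, adjusted p 0.000106), the Input values resting on 9 counts. Without 1 library 8 to 13 splicing genes were lower and 1 to 3 higher (1 without Input replicate 1, 2 without IP replicate 3, Input replicate 2 or Input replicate 3). The 28 nuclear and snoRNA host transcripts looked up were all at 0 in the 6 libraries, so nuclear RNA could not be measured through them.

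Chaperones (median 0.31) had 5 of 31 tested members higher (16.1%) and 1 lower (3.23%), against 6.78% and 9.66% of all tested genes. Hsp90ab1, a cytosolic HSP90, had 1843, 1524 and 1362 CPM in IP and 845, 971 and 769 CPM in Input (0.87, SE 0.20, adjusted p 0.00362) and was called without any 1 library. The count of higher chaperones was 1 without IP replicate 1 or Input replicate 2, 2 without Input replicate 1 or Input replicate 3, and 3 without IP replicate 3. Genes of ER translocation and folding (median -0.11) had 3 lower (7.89%) and 2 higher (5.26%) of 38 tested. Among the lower ones was Sec61g, a small subunit of the translocon, at 76.3, 89.0 and 111 against 346, 248 and 222 CPM (-1.56, SE 0.24, adjusted p 5.88e-05). Of that list 1 was lower without Input replicate 1 or Input replicate 2, and 0 or 1 was higher without any library but IP replicate 1.

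**Figure D4:**
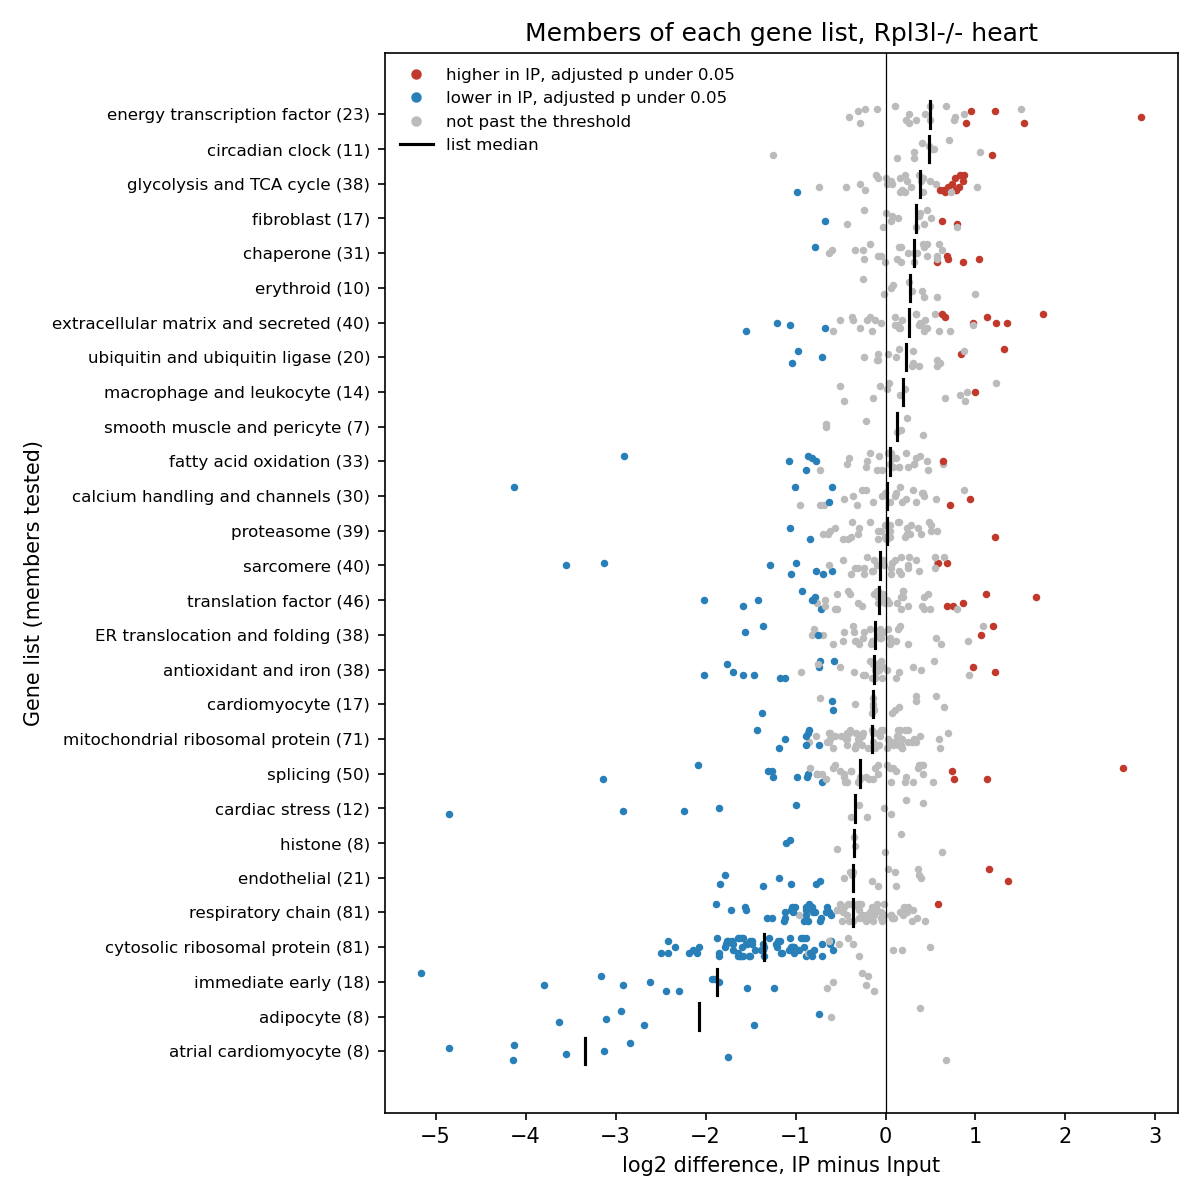
Log2 difference IP minus Input (horizontal axis) of each tested member of the gene lists with at least 7 tested members, ordered by list median (black bar), with red and blue points past the threshold. The medians run from -3.34 for atrial genes to 0.50 for energy and lineage transcription factors.

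The largest single rise in IP was at a 57-base locus annotated as a microRNA gene, Gm24187. It had 639.8, 863 and 479 CPM in IP and 28.2, 4.13 and 12.0 CPM in Input (5.42, SE 0.38, adjusted p 9.98e-10), the Input values resting on 10 counts. Gm25911, a shorter relative, had 54.1, 72.0 and 52.0 against 20.1, 0 and 0 CPM (2.94, adjusted p 0.00258), a call lost with the length trend taken out (adjusted p 0.255). These loci differ by single bases from Gm23935 and Gm24270, so their GENCODE M21 transcripts (GRCm38) are shown, each on its own strand, with a base that differs from Gm23935 in capitals.
Gm23935, chr16:11144125-11144181, plus strand: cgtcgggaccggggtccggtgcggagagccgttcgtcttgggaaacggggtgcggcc
Gm24270, chr9:56223715-56223771, minus strand: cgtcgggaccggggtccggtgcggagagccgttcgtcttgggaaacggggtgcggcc
Gm24187, chr13:9834469-9834525, minus strand: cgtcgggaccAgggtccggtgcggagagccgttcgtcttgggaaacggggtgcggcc
Gm25911, chr1:167340369-167340424, minus strand: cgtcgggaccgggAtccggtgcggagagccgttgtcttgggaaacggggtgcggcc
Counted from 1 at the 5′ end of Gm23935, Gm24187 carries G11A, and Gm25911 carries G14A and lacks the base at position 34. Gm24270 is identical to Gm23935. Gm23935 held 12571, 14864 and 12145 CPM in IP and 21358, 32105 and 7593 CPM in Input and was not called (-0.63, SE 0.33, adjusted p 0.215), and Gm24270 was not called either (0.68). Input replicate 2 was the highest and Input replicate 3 the lowest library for Gm23935. It was lower in IP without Input replicate 3 (-1.03, adjusted p 0.00545) and with the length trend taken out (-2.26, adjusted p 0.000118). The length trend was fitted with these loci included, and the shortest tested protein-coding transcript had 243 bases. For Gm23935 and Gm25911 that setting therefore cannot separate length from the loci's own values. How a read was given to one of these loci is not stated in the sources used here, so the value of a single locus is uncertain.

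Several other genes with the largest rises were low in Input. Lrrc15, a membrane protein of matrix-making cells, had 46.8, 42.4 and 66.3 CPM in IP and 0, 8.27 and 0 CPM in Input; the Input libraries held 2 counts in all, and the ratio of pooled shares was 16.9 (exact 95% interval 4.54 to 142). Fyco1, an adaptor of autophagosome transport, had 101, 192 and 181 against 40.2, 24.8 and 30.04 CPM (2.32, SE 0.35, adjusted p 5.00e-05), and the kinase gene Hipk2 64.0, 151 and 133 against 16.1, 28.9 and 30.04 CPM (2.26, SE 0.41, adjusted p 0.000503). Prrc2b had 54.1, 164 and 109 against 28.2, 16.5 and 6.01 CPM (2.61). Zbtb16, a glucocorticoid-responsive repressor, had 54.1, 273 and 34.1 against 24.1, 4.13 and 6.01 CPM (3.34), with IP replicate 2 alone above 200 CPM. For each of these genes every IP library was above every Input library. The calls of Zbtb16 and Prrc2b were lost by limma-voom (adjusted p 0.281 and 0.102), and that of Zbtb16 also by DESeq2 (0.0518). Vdac3-ps1, Gm11702, Gm5537 and Nsf were also among the largest rises. Their calls were lost by DESeq2 too (adjusted p 0.210, 0.225, 0.674 and 0.0560). Among the lowest was Arl5c, a small GTPase gene, with 3 counts in IP and 32 in Input (ratio of pooled shares 0.0368, exact 95% interval 0.00721 to 0.118).

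The difference between the fractions followed transcript length. Over 5038 tested protein-coding genes with an annotated transcript, the log2 difference correlated with log length at 0.402 (Pearson's r; Spearman's rho 0.394), a description across genes, which are not independent replicates. The shortest 1008 genes (243 to 1577 bases) had a median log2 difference of -0.41, with 273 genes lower and 11 higher in IP. The longest 1008 (5309 to 106824 bases) had a median of 0.37, with 26 lower and 150 higher. In the 3 classes between them, of 1007 or 1008 genes, the medians were -0.06, 0.06 and 0.18. The spread of such a median between libraries, as the square root of the summed variances of both fractions, was 0.21 for the shortest and 0.15 for the longest class. Leaving out 1 library moved these 2 medians between -0.52 and -0.30 and between 0.30 and 0.43. Coding length gave a rho of 0.366, 3′ UTR length 0.281 and 5′ UTR length 0.0799.

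Among genes under 1000 bases, 45 ribosomal protein genes had a median of -1.48 (42 lower), 47 respiratory chain genes one of -0.48 (21 lower), and 365 other protein-coding genes one of -0.53 (121 lower and 4 higher). With the length trend taken out of the fit, 53 of 81 ribosomal protein genes, 7 of 8 atrial genes and 12 of 18 immediate early genes were lower (medians -0.86, -2.87 and -1.77). Mitochondrial ribosomal protein genes then had 2 lower, translation factors 5 lower and 3 higher, and macrophage markers 5 higher. The number of genes called was then 612, 263 higher and 349 lower. Without the ribosomal protein genes rho was 0.374.

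**Figure D5:**
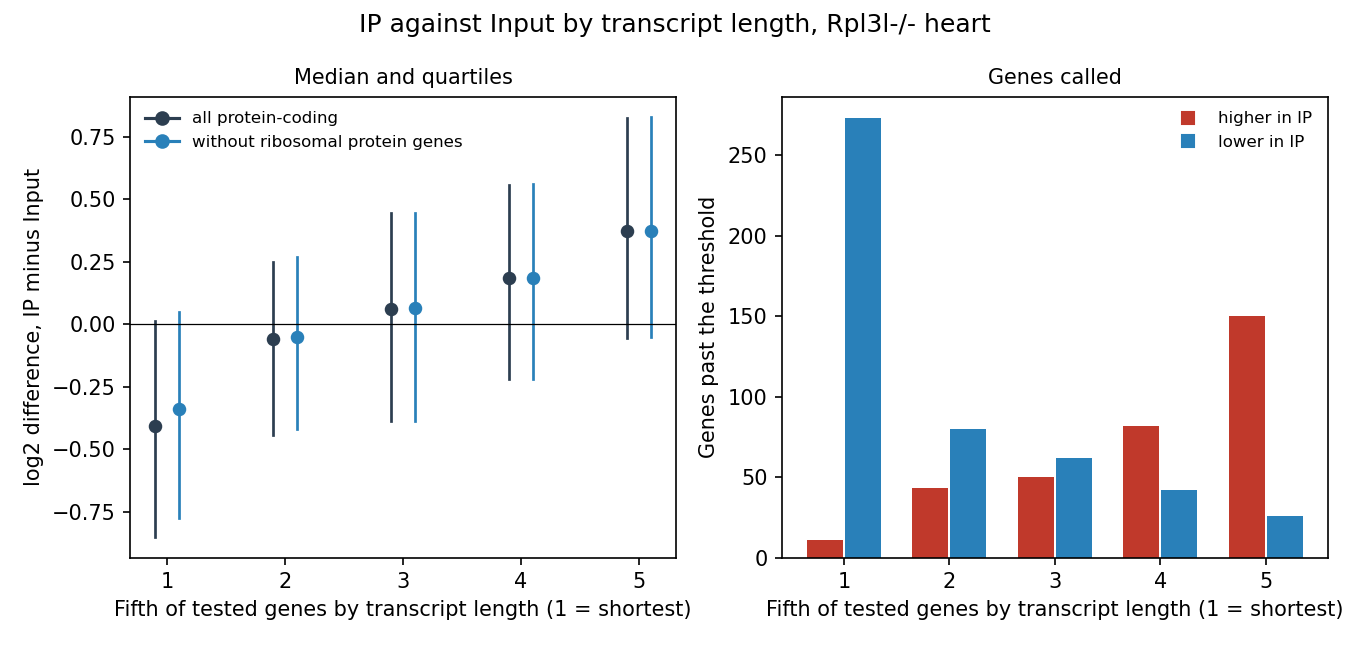
Left, median and quartiles of the log2 difference IP minus Input in 5 equal classes of tested protein-coding genes by the length of the longest annotated transcript, with and without ribosomal protein genes. Right, number of genes past the threshold in each class, with 273 lower in the shortest and 150 higher in the longest.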

How the data were processed

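The deposited values are counts per gene and library, which the authors made from nanopore direct cDNA reads. The submitters' processing notes name minimap2 2.14, DESeq2 1.34.0 and GRCm38, without roles; the counting tool, its rule for shared or antisense reads and the annotation are not given in the sources used here. Groups came from the sample labels. Gene names, lengths and coordinates came from GENCODE M21, which held 55141 of the 55401 gene IDs, and start sites from RefSeq.

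Genes were filtered with filterByExpr (minimum count 10, minimum total 15) and tested with edgeR 4.0.16 (R 4.3.3) by the quasi-likelihood test with TMM scaling on the 6 Rpl3l-/- libraries, with Benjamini-Hochberg adjustment over all 5116 genes and a threshold of 0.05. All adjusted p-values are from this test unless another is named; the biological coefficient of variation was 19.1%. Fold changes follow the fitted log2 difference, and CPM values are counts per 1000000 after scaling. Exact intervals are at the 95% level and, like the 3-count floor, cover counting error only. A permutation test of 3 against 3 libraries cannot go below an exact two-sided p of 0.1 and was not used. The script was tested on simulated data.

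Gene lists and members were chosen with earlier results of these data known. Named genes are Rpl3l and Rpl3, the 15 called genes per direction with the largest difference, no overlap and a mean of at least 20 CPM, up to 4 called members per list and direction by p (1 where none was called), the 5 most abundant genes per fraction, and 13 heart genes; any other gene named was chosen after its values were seen. Deviations of same-numbered libraries from the mean of their fraction correlated at -0.0724 to 0.00707 over 3 pairs. With so few libraries and low counts, such values cannot tell whether same-numbered libraries share a heart. Alternatives were other scalings, filters and tests (DESeq2 1.42.0, limma-voom with limma 3.58.1), thinned libraries, a replicate block, removal of globin genes or of the length trend (loess, span 0.5), and leaving out each library. Wild-type libraries were not analysed here beyond the counts of Rpl3l and Rpl3.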

Additional observations from a re-analysis of the deposited data

How the results depend on the processing

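Of 841 genes called (347 higher, 494 lower in IP), libraries thinned to the smallest depth called 516 (196 higher, 320 lower), so depth limits the count. The higher genes numbered 194 by DESeq2 and 219 by limma-voom; the cause was not tested. Leaving out 1 library gave 540 to 792 called genes, 195 to 305 higher and 345 to 488 lower. The fit with a replicate block gave 786 genes (332 higher, 454 lower). Same-numbered libraries are known to share only the number, and 1 of 6 correlated best with its own number. Whether they share a heart was not decided by this. With no count filter, which tested 14752 genes in place of 5116, 512 genes were higher and 442 lower. Leaving out the 57-base loci and Lars2, chosen after seeing the data, gave 842. The median log2 difference kept its sign in the shortest and longest transcripts in every setting run, at -0.26 and 0.30 in 3 classes by length. Of 131 named genes called, 73 kept the call in every setting that tested them, 44 lost it without some library and 14 lost it only elsewhere. Some of the 73 fell under the filter in part of the 17 settings, such as Fos, which was tested in 15. Fxyd1 changed sign with the length trend taken out (0.040).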

Other observations

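Proteasome genes were close to the median of all tested genes (0.03), and the median of ubiquitin and ligase genes lay above it. Of 39 tested proteasome genes (median 0.01) 1 was higher in IP (2.56%) and 2 were lower (5.13%), against 6.78% and 9.66% of all tested genes. The higher one was Psmd1, a subunit of the proteasome's base (322, 234 and 237 CPM in IP, 92.5, 157 and 84.1 CPM in Input, log2 difference 1.21, SE 0.26, adjusted p 0.00206). Among 20 tested genes of ubiquitin and its ligases 3 were lower (15%) and 2 higher (10%), with a median of 0.22. The conjugating enzyme gene Ube2d3 was lower at 159.9, 271 and 226 CPM in IP against 467, 405 and 433 CPM in Input (-0.97, SE 0.21, adjusted p 0.00263), with no overlap between the fractions. Without Input replicate 3, 5 proteasome genes were lower, and 1 without IP replicate 3 or Input replicate 2. Without any 1 library but IP replicate 1, 1 ubiquitin gene was higher.

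Replacement histone genes H3f3a (-1.06, SE 0.22) and H2afz (-1.10, SE 0.27) were lower in IP. They were 2 of 8 histone genes tested (25%, against 9.66% of all tested genes). With the length trend taken out H2afz was at adjusted p 0.0988. Of 11 tested clock genes (median 0.48) 1, Bhlhe41, was higher (9.09%, against 6.78% of all tested genes). Its call was lost without IP replicate 1, Input replicate 2 or Input replicate 3. It was also lost by DESeq2, by limma-voom and with the length trend taken out. By annotation, 57 processed pseudogenes were tested, of which 8 were higher and 7 lower, against 336 higher and 485 lower of 5041 protein-coding genes. Neural and epicardial markers had 1 tested member each, Pmp22 (-0.25) and Clu (-0.21), neither called.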
